A study of Mus musculus with 15 samples.

Results

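The interleukin 6 family was followed through 9 genes: the ligands Il6, Il11, Osm and Lif, the receptor chains Il6ra, Il6st, Osmr and Lifr, and the transcription factor Stat3. A gene was included when an array row carried its symbol and no other, and where several rows did, the row with the highest mean log2 intensity was to be taken. Each of the 9 genes had 1 such row, out of 28361 rows and 19934 genes with their own symbol on the array. The study asked how inhaled hydrogen sulfide (H2S) changes the response of the lung to mechanical ventilation. RNA was taken from the inferior right lobe of the lungs. The mice were males of the inbred strain C57BL/6N with a body weight of 24 to 26 g. The RNA was hybridised to Affymetrix whole-transcript arrays, 1 array per mouse. All groups were anaesthetised with ketamine (90 mg/kg) plus acepromazine (1 mg/kg) and carried an arterial line and a tracheal tube. The 5 control mice breathed synthetic air on their own for 6 h. The 5 air-ventilated mice received synthetic air from a ventilator over the same 6 h, with tidal volumes of 12 ml/kg, 80 to 90 breaths per minute and a positive end-expiratory pressure of 2 cm H2O. The 5 H2S-ventilated mice were ventilated in the same way with 80 ppm H2S added. The operation and anaesthesia are therefore shared by all groups, and H2S without ventilation is not analysed here.

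Cytokines of this family signal through receptors that contain gp130, the product of Il6st. Interleukin 6 and interleukin 11 first bind their own receptor chain, Il6ra in the case of interleukin 6, and then engage gp130, whereas LIF and oncostatin M bring gp130 together with Lifr or Osmr. JAK kinases bound to the receptors then phosphorylate STAT3, which enters the nucleus and induces acute phase genes, survival genes and its own inhibitor Socs3. In the lung these cytokines are known for acute phase signalling and for protection of the epithelium during injury.

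In H2S-ventilated lungs, Lif, Osmr, Il6ra and Stat3 were higher than in control lungs, by 1.51-fold, 48.8%, 36.7% and 24.1%, and the other 5 genes did not pass the test. Among all rows of the array, 3.92% were higher and 3.93% lower at an adjusted p under 0.05 in this comparison. In air-ventilated lungs, Il6ra was higher than in control lungs by 41.9%, and the other 8 genes did not pass the test, beside 1.56% of all rows that were higher and 1.89% that were lower. Between H2S and air ventilation 0 of the 9 genes passed by limma, beside 0.0776% of all rows. Of the 9 genes, 3 had an unadjusted p under 0.05 there (Lif, Il6 and Osm, the ligands other than Il11), and 1 passed by CyberT, the regularised test that the study used. Over all rows the shares were 0.504% by CyberT and 5.68% at an unadjusted p under 0.05. Differences are given as log2 fold changes of intensity with the standard error of limma, fitted over all 15 arrays, and p-values were adjusted by Benjamini-Hochberg over the 28361 rows. Both ventilated groups were compared with the same 5 control mice, so these comparisons are not independent of each other. The labels do not say whether the mice of a group were handled in separate sessions. The p-values weigh a difference of group means against the spread between these mice, which would include any difference between sessions. By limma that spread was estimated over all groups and moderated over all rows. In a whole lobe, fewer cells of a type and less RNA per cell cannot be told apart.

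**Figure D1:**
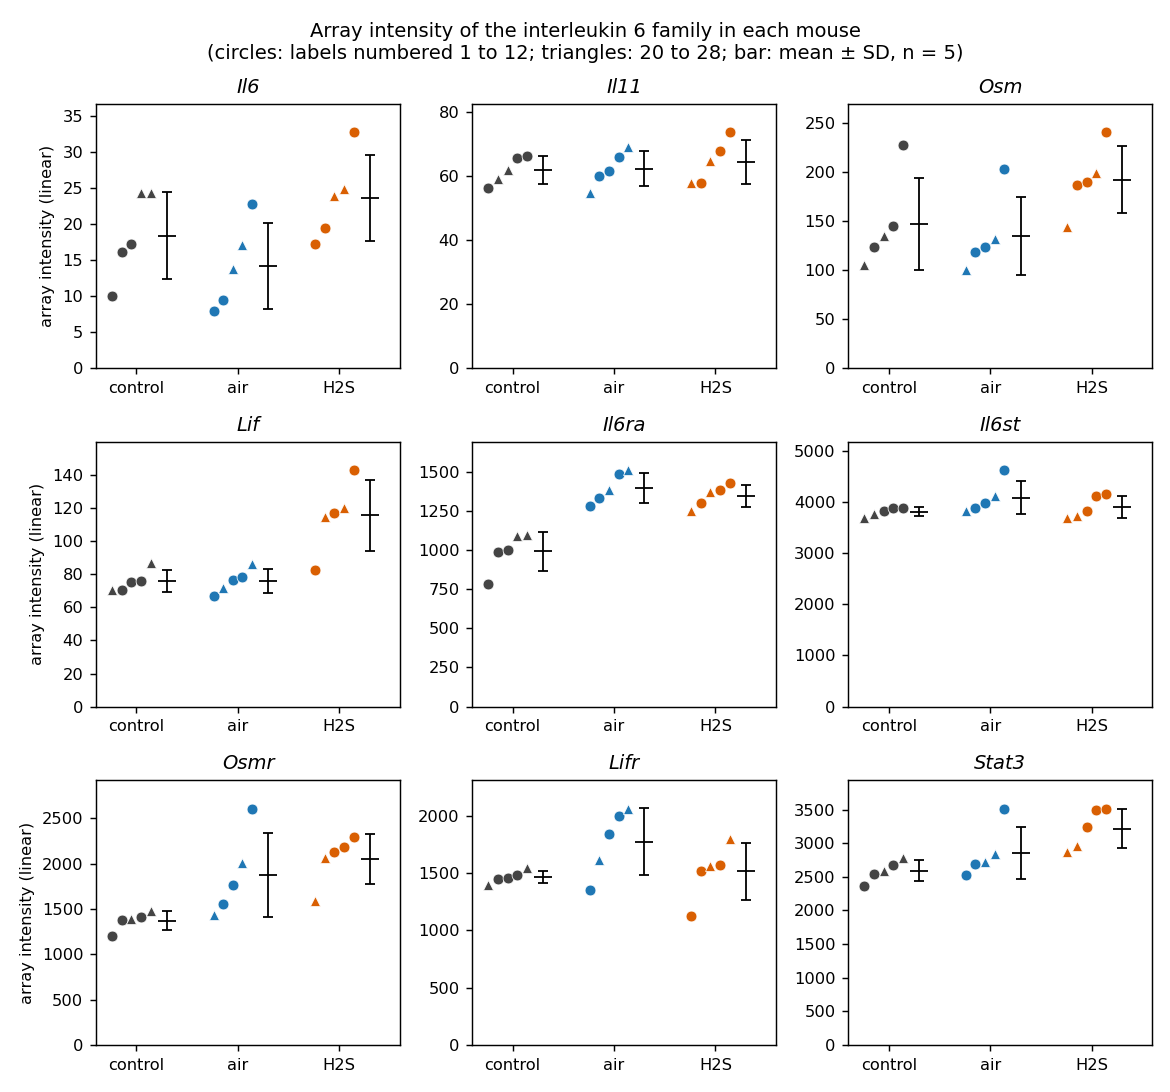
Array intensity on a linear scale for each of the 9 genes in each of the 15 mice, with the group on the horizontal axis, circles for mice whose labels are numbered 1 to 12, triangles for 20 to 28, and bars for the mean and SD of 5 mice. The Lif points of H2S-ventilated mice reach 143 while those of the other groups stay at or below 86.5, and the Il6ra points of both ventilated groups lie above all control points.

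Median array intensities ran from 179 to 187, and arrays of the same group correlated at 0.984 to 0.994 across rows. The markers of alveolar type II cells, which define lung tissue, were all measured, with a summed intensity of 59238 to 61916 in control, 60109 to 63172 in air-ventilated and 60449 to 62641 in H2S-ventilated mice. The sample labels hold a running number of unstated meaning, with 1 to 12 in 3 mice per group and 20 to 28 in 2 mice per group, and values within each set are given beside the main results. In the numbers 20 to 28 alone, 0 of all 28361 rows passed with air and 2 with H2S, so a gene that did not pass there tells little. Mouse 11_6 of the air-ventilated group was the highest of its group for 5 of the 9 genes, and mouse 4_8 of the H2S-ventilated group for 6.

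Among the ligands, Lif encodes leukaemia inhibitory factor, a cytokine that binds Lifr and gp130. The gene lies on chromosome 11 from 4257568 to 4272514 (GRCm38.p6, RefSeq), separated by 16541 bases from Osm. The promoter windows of Lif and Il6 are printed because these ligands had the largest estimated differences between H2S and air ventilation. They are taken from RefSeq (GRCm38.p6) and hold 300 bases, of which the last 50 follow the start of the gene. The capitals mark the AP-1 motif TGANTCA in both genes, and in Il6 also the motif searched for NF-kB, which is GGGATTTTCC with any base as the fifth. The windows are chr11:4257318-4257617 on the plus strand for Lif and chr5:30012864-30013163 on the plus strand for Il6.
Lif: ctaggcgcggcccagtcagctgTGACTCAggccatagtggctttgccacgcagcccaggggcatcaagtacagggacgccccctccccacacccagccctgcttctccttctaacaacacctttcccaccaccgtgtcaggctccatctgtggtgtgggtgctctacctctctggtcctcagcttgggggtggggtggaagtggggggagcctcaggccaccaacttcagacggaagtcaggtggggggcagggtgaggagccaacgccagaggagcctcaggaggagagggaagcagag
Il6: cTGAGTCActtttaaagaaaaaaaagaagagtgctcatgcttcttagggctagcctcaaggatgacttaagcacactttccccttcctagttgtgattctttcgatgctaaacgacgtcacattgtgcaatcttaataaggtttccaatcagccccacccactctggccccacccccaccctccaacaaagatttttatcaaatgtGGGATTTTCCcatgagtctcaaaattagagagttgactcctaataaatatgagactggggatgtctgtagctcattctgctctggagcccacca

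Of the 9 genes, 8 had a promoter window in the RefSeq table, with 10 windows in all, and Osm was not listed. Both strands were searched for TGANTCA, the NF-kB motif, TTCNNNGAA (STAT) and TGACGTCA (CRE). The AP-1 letters stood as TGACTCA 228 bases before the start of Lif, as TGAGTCA 249 bases before that of Il6 and 98 bases before the start of Il11 at its second window, and as TGATTCA 4 bases after the start of Osmr. They were present in 7.81% of 32851 mouse promoter windows of the same length. The NF-kB letters stood as GGGATTTTCC 44 bases before the start of Il6 and in 0.411% of all windows. The STAT letters, present in 8.3% of all windows, and the CRE letters, present in 1.79%, were found in none of the 10 windows of these genes. A match of letters describes the sequence and not the binding of a factor.

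Lif had intensities of 70.4, 76.1, 75.1, 86.5 and 70.2 in control mice. They were 78.1, 76.2, 66.9, 86.4 and 71.9 in air-ventilated mice. In H2S-ventilated mice they were 117, 143, 82.6, 115 and 120.1. Of the H2S-ventilated mice, 4 lay above every other mouse, and mouse 9_12, at 82.6, lay within the range of the control and air-ventilated mice. The mean was 75.7 ± 6.63 (SD, n = 5) in control, 75.9 ± 7.28 in air-ventilated and 115 ± 21.5 in H2S-ventilated mice. Lif was higher with H2S than in control by 0.59 on the log2 scale (SE 0.12, 95% confidence interval 0.34 to 0.85, adjusted p = 0.00570 by limma). With air ventilation the difference from control was 0.00 (interval -0.25 to 0.26, adjusted p = 0.998 by limma). The difference of H2S from air ventilation was also 0.59 (interval 0.34 to 0.84), with an unadjusted p of 0.000154 and an adjusted p of 0.112 by limma. Without mouse 9_12 the latter was 0.70 and passed, at an adjusted p of 0.00452 by limma. It did not pass without any of the other 14 mice, at differences from 0.51 to 0.64 and adjusted p-values up to 0.334. In the label numbers 1 to 12 Lif was higher with H2S than in control by 0.59 and in the numbers 20 to 28 by 0.59, with adjusted p-values of 0.103 and 0.358 by limma in these smaller sets.

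Il6 encodes interleukin 6 itself and lies on chromosome 5 from 30013114 to 30019975. Its intensities were 16.2, 17.3, 10.1, 24.3 and 24.2 in control mice. They were 9.46, 22.7, 8, 13.8 and 17.1 in air-ventilated mice. With H2S ventilation they were 19.4, 32.7, 17.3, 24.8 and 23.9. All groups overlapped, and the highest value belonged to H2S-ventilated mouse 4_8. The means were 18.4 ± 6.00, 14.2 ± 5.96 and 23.6 ± 5.97 (SD, n = 5) in control, air-ventilated and H2S-ventilated mice. No detection call was used here, and whether these low intensities stand above background was not tested. The log2 difference from control was -0.40 (SE 0.28, adjusted p = 0.633 by limma) with air and, with H2S, 0.40 (adjusted p = 0.504). Leaving out 1 mouse moved the former between -0.60 and -0.22 and the latter between 0.20 and 0.51. In the label numbers 1 to 12 the differences were -0.24 with air and 0.66 with H2S, and in 20 to 28 they were -0.66 and 0.01, none of which passed. Between H2S and air ventilation the difference was 0.80 (SE 0.28, interval 0.20 to 1.40), which is the largest point estimate among the 9 genes and did not pass the test (unadjusted p = 0.0125, adjusted p = 0.611 by limma).

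Osm encodes oncostatin M, a product mainly of myeloid cells, and lies on chromosome 11 from 4236785 to 4241026. Its intensities were 124, 227, 145, 106 and 135 in control mice. They were 119, 204, 123, 100.2 and 131 in air-ventilated mice. The H2S-ventilated mice had 187, 241, 190.1, 144 and 199. All groups overlapped. Control mouse 6_5 and air-ventilated mouse 11_6, at 227 and 204, lay within the H2S-ventilated range, and so did control mouse 7_9, at 145, just above H2S-ventilated mouse 15_20, at 144. The difference from control was -0.12 (interval -0.55 to 0.32, adjusted p = 0.916 by limma) with air and 0.41 (interval -0.02 to 0.85, adjusted p = 0.267) with H2S. H2S against air ventilation gave 0.53 (SE 0.20, interval 0.10 to 0.96, unadjusted p = 0.0192, adjusted p = 0.675 by limma). With the label numbers in runs of 4 as a block, the difference between H2S and control was 0.41 and passed, at an adjusted p of 0.0207 by limma. H2S-ventilated mouse 15_20, the lowest of its group for Osm, was alone in its run and so had no weight in that difference. The difference between H2S and control did not pass with the number sets as a block (adjusted p = 0.18), in a fit of both groups alone (0.256) or by CyberT (0.0696). In the numbers 1 to 12 it was 0.35 and in 20 to 28 it was 0.50, with adjusted p-values of 0.565 and 0.462 by limma.

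Il11, the gene of interleukin 11 on chromosome 7 from 4772373 to 4782907, had overlapping intensities of 56.4 to 66.5 in control, 54.9 to 69.1 in air-ventilated and 57.8 to 73.8 in H2S-ventilated mice. Its log2 differences from control were 0.01 (interval -0.18 to 0.19, adjusted p = 0.992 by limma) with air and 0.05 (interval -0.13 to 0.24, adjusted p = 0.820) with H2S. H2S and air ventilation differed by 0.05 (interval -0.14 to 0.23, adjusted p = 0.997 by limma). The 95% intervals of Il11 were the narrowest among the ligands. Its intensities were low, with 23.7% of rows lower by mean log2, and whether they stand above background was not tested.

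Among the receptor chains, Il6ra encodes the chain that binds interleukin 6 and is known from hepatocytes and from leukocytes such as macrophages and neutrophils. It lies on chromosome 3 from 89869324 to 89913196. Its intensities were 1001, 985, 782, 1097 and 1086 in control mice. They were 1333, 1482, 1283, 1381 and 1508 in air-ventilated mice. Those of H2S-ventilated mice were 1382, 1428, 1297, 1251 and 1371. Every ventilated mouse lay above every control mouse, and the ventilated groups overlapped each other. The means were 990.4 ± 126 (SD, n = 5) in control, 1398 ± 96.2 in air-ventilated and 1345 ± 70.9 in H2S-ventilated mice. Il6ra was higher with air by 0.50 (SE 0.09, interval 0.31 to 0.69, adjusted p = 0.00573 by limma), and 2.65% of all rows had no overlap upward in this comparison. With H2S it was higher by 0.45 (interval 0.26 to 0.64, adjusted p = 0.00527 by limma), and 4.11% of rows had no overlap upward. The exact two-sided permutation p was 0.00794 in both comparisons, the smallest that 5 against 5 mice can give. H2S and air ventilation differed by -0.05 (interval -0.24 to 0.14, adjusted p = 0.997 by limma).

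The rise of Il6ra passed the test without each of the 15 mice in turn, with differences of 0.42 to 0.54 for air and 0.37 to 0.49 for H2S. In the label numbers 1 to 12 the rise was 0.57 with air and 0.58 with H2S, with adjusted p-values of 0.0407 and 0.0281 by limma. In the numbers 20 to 28 it was 0.40 and 0.26, with adjusted p-values of 0.783 and 0.445. Markers of some leukocytes changed in the same comparisons. Of all rows, 3.44% with air and 7.86% with H2S were called there by limma, and 5.7% and 9.22% by CyberT. Of 10 neutrophil markers, 2 rose with air, 3 rose with H2S and 0 fell by limma, and CyberT called 4 with air and 6 with H2S. Their summed intensity was 6735 to 11744 in control, 11421 to 16626 in air-ventilated and 10092 to 19242 in H2S-ventilated mice. The neutrophil genes that rose in both were Mmp8, by 1.88 and 1.94, and Retnlg, by 1.15 and 1.23. Of 7 measured markers of alveolar macrophages, 1 rose and 1 fell with air and 4 rose with H2S by limma, and CyberT called 3 and 4. Their sum was 3675 to 4130 in control, 4125 to 4591 with air and 4712 to 5255 with H2S. Of 9 measured B cell markers, all fell in both comparisons, and the sum was 3573 to 6163 in control, 1398 to 3350 with air and 1314 to 2588 with H2S. Of 8 measured monocyte markers, 1 fell and 0 rose in each comparison by limma, with medians of -0.44 with air and -0.40 with H2S, and 5 and 4 were called by CyberT. The summed intensity of monocyte markers was 6783 to 10029 in control, 6012 to 6801 with air and 5743 to 8072 with H2S. Of 9 measured T cell markers, 0 were called by limma or CyberT or had an unadjusted p under 0.05 in either comparison, and the sum was 2123 to 3503, 1766 to 4129 and 2129 to 3188. No marker of these lists was at 0, and their part in the values of Il6ra or of the other genes was not tested.

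Osmr encodes the chain that joins gp130 in the oncostatin M receptor and is known from fibroblasts, endothelium and epithelium. It lies on chromosome 15 from 6813568 to 6874968, with 215641 bases between it and Lifr. Its intensities were 1413, 1374, 1203, 1385 and 1480.3 in control mice. They were 1762, 2610, 1555, 1432 and 2010.0 in air-ventilated mice. In H2S-ventilated mice they were 2300.3, 2125, 2187, 1584 and 2063. All H2S-ventilated mice lay above all control mice, as in 4.11% of all rows. Air-ventilated mouse 34_22, at 1432, lay within the control range and mouse 11_6, at 2610, was above every other mouse. Osmr was higher with H2S by 0.57 (SE 0.14, interval 0.27 to 0.87, adjusted p = 0.0192 by limma). With air the difference was 0.42 (interval 0.12 to 0.72, adjusted p = 0.137 by limma), and CyberT passed it at an adjusted p of 0.0218. H2S and air ventilation differed by 0.15 (interval -0.15 to 0.45, adjusted p = 0.997 by limma).

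The call of Osmr with H2S was lost without control mouse 7_9, at an adjusted p of 0.0560, and without H2S-ventilated mouse 1_4, at 0.0536, with a difference of 0.53 in either case. In the label numbers 1 to 12 the difference was 0.73 (adjusted p = 0.0450 by limma) and in 20 to 28 it was 0.34 (adjusted p = 0.554). In the comparison of H2S with control, 0 of 10 markers of fibroblasts and pericytes rose and 2 fell by limma. Of 10 endothelial markers, 0 rose and 3 fell. Of all rows, 3.92% rose and 3.93% fell. CyberT called 4 markers of fibroblasts and pericytes, 3 endothelial markers and 9.22% of all rows. Of epithelial markers, 1 of 8 rose and 1 fell for alveolar type II cells, 0 of 6 rose and 1 fell for alveolar type I cells, and 0 of 6 airway markers were called by limma or CyberT or had an unadjusted p under 0.05.

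Il6st, the gene of the shared chain gp130 on chromosome 13 from 112464070 to 112506860, had intensities of 3679 to 3890 in control mice. They were 3816 to 4617 in air-ventilated mice and 3681 to 4159 in H2S-ventilated mice, and all groups overlapped. The highest value again belonged to air-ventilated mouse 11_6. Il6st differed from control by 0.10 (SE 0.07, interval -0.05 to 0.24, adjusted p = 0.638 by limma) with air and by 0.03 (interval -0.11 to 0.18, adjusted p = 0.864) with H2S. H2S and air ventilation differed by -0.06 (interval -0.21 to 0.08, adjusted p = 0.997 by limma). The intervals against control leave room for a log2 rise of at most 0.24 with air and 0.18 with H2S.

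Lifr, which pairs with gp130 to bind LIF, lies on chromosome 15 from 7090610 to 7197489. Its intensities were 1488, 1446, 1460, 1394 and 1547 in control mice. They were 1843, 1351, 2004, 1614 and 2065 in air-ventilated mice. With H2S ventilation they were 1521, 1122, 1572, 1799 and 1561. Of the air-ventilated mice, 4 lay above all controls and mouse 11_6 lay below them all, and H2S-ventilated mouse 4_8 was the lowest of the 15. The difference from control was 0.26 (SE 0.13, interval -0.01 to 0.52, adjusted p = 0.374 by limma) with air and 0.03 (interval -0.23 to 0.30, adjusted p = 0.939) with H2S. H2S against air ventilation gave -0.23 (interval -0.49 to 0.04, adjusted p = 0.938 by limma). The same mice that were lowest for Lifr were the highest of their groups for Il6.

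Stat3, the transcription factor that the receptors activate, lies on chromosome 11 from 100886806 to 100939594. Its intensities were 2678, 2540.3, 2363, 2579 and 2775 in control mice. They were 2693, 3512, 2523, 2717 and 2834 in air-ventilated mice. The H2S-ventilated mice had 3491, 3514, 3241, 2874 and 2962. All H2S-ventilated mice lay above all control mice, as in 4.11% of all rows. Among air-ventilated mice the value of mouse 11_6 was just below the highest H2S-ventilated value. Stat3 was higher with H2S than in control by 0.31 (SE 0.09, interval 0.12 to 0.51, adjusted p = 0.0493 by limma), just under the threshold. With air the difference was 0.14 (interval -0.06 to 0.33, adjusted p = 0.616 by limma), and H2S and air ventilation differed by 0.18 (interval -0.02 to 0.37, adjusted p = 0.918). The call with H2S was lost in 12 of the 15 fits that left out 1 mouse, with differences of 0.28 to 0.35 and adjusted p-values up to 0.123. It was kept without air-ventilated mouse 11_6 (adjusted p = 0.0201 by limma), air-ventilated mouse 12_10 (0.0496) or H2S-ventilated mouse 15_20 (0.0338). In the label numbers 1 to 12 the difference was 0.44 (adjusted p = 0.112 by limma) and in 20 to 28 it was 0.12 (adjusted p = 0.661). Array measurements of the transcript carry no information on phosphorylation of the protein.

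**Figure D2:**
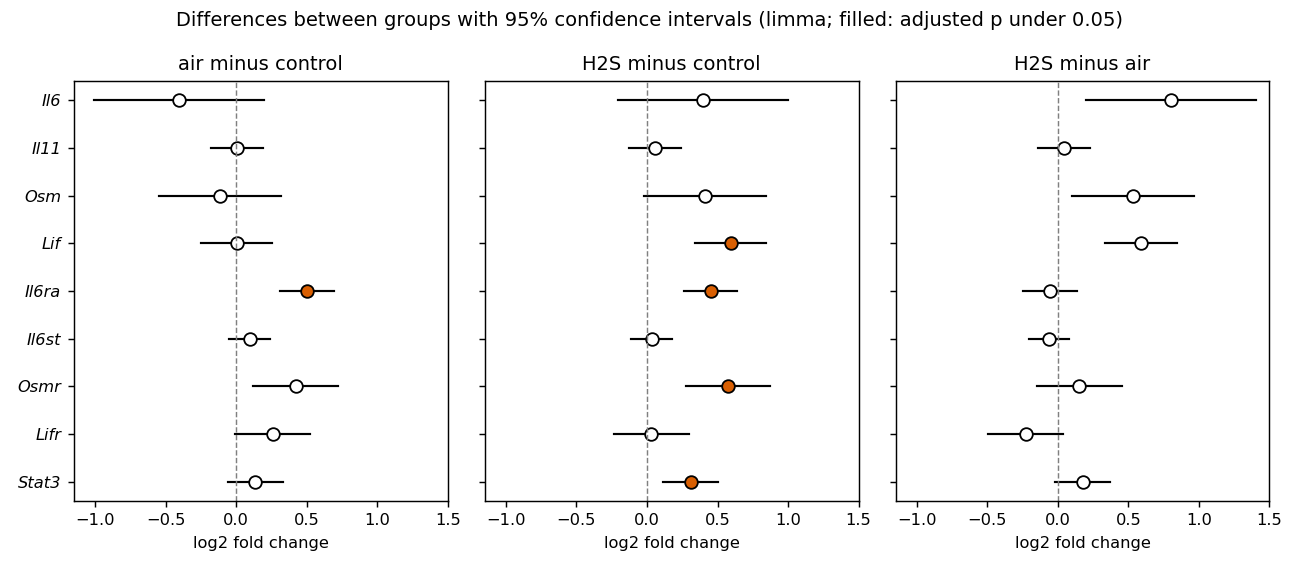
Log2 fold change of intensity with its 95% confidence interval for each of the 9 genes on the vertical axis, in panels for air minus control, H2S minus control and H2S minus air, with filled points for an adjusted p under 0.05 by limma. Filled points stand for Il6ra alone in the air panel, for Lif, Il6ra, Osmr and Stat3 in the H2S panel and for none in the panel of H2S minus air.

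As a group, the 9 genes had a median log2 difference of 0.10 with air against 0.01 for all rows, with 7 positive and 2 negative differences, beside 54.5% positive among all rows. With H2S the median was 0.40 against 0.00 for all rows. All 9 differences were positive and 4 of them were called, beside 50.5% positive among all rows. The median was the difference of Il6, which was not called. Those of Lifr, Il6st and Il11 were 0.03, 0.03 and 0.05, and each changed sign under some settings. The genes were not independent of each other, with Osmr and Stat3 correlated at 0.91. Between H2S and air ventilation the median was 0.15 against -0.01, with 6 positive and 3 negative differences, beside 47.2% positive among all rows. The gene that passed by CyberT was Lif, at an adjusted p of 0.0246. The thresholds of the study, which add a fold of at least 1.7, were met by 0 of the 9 genes in each comparison by limma, against 0.959%, 1.45% and 0.0599% of all rows. By CyberT, Il6 met them between H2S and air ventilation, with an adjusted p of 0.0765. The share of all rows that met them by CyberT was not counted. Only 5.34% of rows had a lower mean log2 intensity than Il6, and whether it stands above background was not tested.

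**Figure D3:**
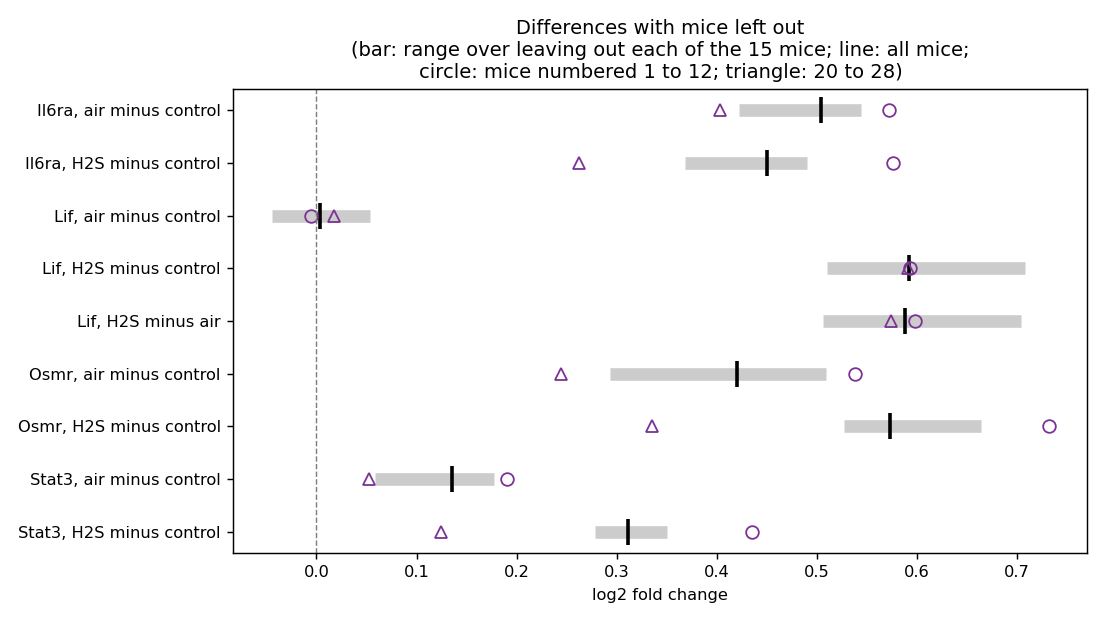
Log2 fold change, on the horizontal axis, of selected genes and comparisons when each of the 15 mice was left out in turn (bar from lowest to highest), with a line for all mice, a circle for label numbers 1 to 12 and a triangle for 20 to 28. The Lif difference with H2S lies at 0.59 in both number sets, whereas those of Osmr, Il6ra and Stat3 are 0.73, 0.58 and 0.44 in the first set and 0.34, 0.26 and 0.12 in the second.

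Other genes of the pathway were examined from lists, which were chosen with earlier results of these data known. Their counts beside the shares of all rows are therefore a description and not a test. For reading their counts, 14% of all rows with air and 20.7% with H2S had an unadjusted p under 0.05 against control. Of all rows, limma called 3.44% with air and 7.86% with H2S, and CyberT called 5.7% and 9.22%. Of 6 measured ligands of gp130 receptors outside the 9 genes, among them Ctf1, Clcf1 and Il27, 0 were called in any comparison by limma or CyberT, and 1 had an unadjusted p under 0.05, with H2S. Their median differences were 0.00 with air and -0.05 with H2S. Of 3 measured receptor chains (Cntfr, Il27ra and Il31ra) 0 were called by limma and 1 by CyberT in each comparison with control, where 2 with air and 1 with H2S had an unadjusted p under 0.05. The difference of Cntfr was 0.54 with air and 0.67 with H2S (SE 0.24 in both, adjusted p = 0.324 and 0.111 by limma). Of 9 measured kinases, adaptors and other STATs, 0 were called with air (2 at an unadjusted p under 0.05, 0 by CyberT) and 2 rose with H2S. These were Ptpn11, the phosphatase SHP2 that docks on gp130, by 0.30 (SE 0.07, adjusted p = 0.0171 by limma), and the adaptor Shc1 by 0.34 (SE 0.09, adjusted p = 0.0341). Ptpn11 was also above every control mouse with air, as were 2.65% of all rows, and its difference of 0.25 did not pass (adjusted p = 0.0667 by limma).

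Inhibitors of the pathway were measured for 8 genes, of which 0 were called with air by limma (3 at an unadjusted p under 0.05, 2 by CyberT) and 3 rose with H2S. Of all rows, 3.92% rose with H2S by limma. Socs3, the feedback inhibitor that binds gp130, had intensities of 362, 375, 276, 381 and 383 in control mice. They were 417, 768, 371, 447 and 549 in air-ventilated mice. Those of H2S-ventilated mice were 759, 1122, 682, 679 and 697. Every H2S-ventilated mouse lay above every control mouse, as in 4.11% of all rows, and air-ventilated mouse 11_6 lay among the H2S-ventilated mice. Socs3 was higher with H2S by 1.13 (SE 0.18, interval 0.74 to 1.52, adjusted p = 0.00151 by limma). With air its difference was 0.48 (adjusted p = 0.201 by limma), and H2S and air ventilation differed by 0.65 (interval 0.26 to 1.03, adjusted p = 0.370). Neither passed by limma, and both passed by CyberT, at adjusted p-values of 0.0211 and 0.0165. Ptpn2, a phosphatase of STAT proteins, rose with H2S by 0.46 (adjusted p = 0.0101 by limma) and Cish, of the family of Socs3, by 0.27 (adjusted p = 0.0398), which did not pass by CyberT (adjusted p = 0.106). The promoter of Socs3 is shown because it holds the STAT letters that were absent from the windows of the 9 genes. The window is chr11:117969317-117969616 on the minus strand (GRCm38.p6, RefSeq), and the capitals mark TTCTTAGAA, with its first base 154 bases before the start of the gene.
Socs3: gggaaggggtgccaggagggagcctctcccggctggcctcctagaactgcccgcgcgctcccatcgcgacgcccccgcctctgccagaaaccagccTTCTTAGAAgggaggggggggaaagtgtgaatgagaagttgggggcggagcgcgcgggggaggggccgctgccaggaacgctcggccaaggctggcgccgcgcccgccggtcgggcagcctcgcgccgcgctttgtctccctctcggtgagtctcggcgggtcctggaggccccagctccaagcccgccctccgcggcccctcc

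Of 25 genes listed as targets of STAT3, 15 rose with H2S and 0 fell, with a median difference of 0.56, beside 7.86% of all rows called in that comparison. With air 4 rose and 1 fell, with a median of 0.10, beside 3.44% of all rows. Between H2S and air ventilation 0 of 25 were called by limma, 12 had an unadjusted p under 0.05 and 5 were called by CyberT, with a median difference of 0.24. The corresponding shares of all rows were 0.0776%, 5.68% and 0.504%. Serpina3n, an acute phase serine protease inhibitor, rose by 0.59 with air (SE 0.10, adjusted p = 0.00428 by limma) and by 0.84 with H2S (adjusted p = 0.000195). Bcl2l1, the gene of the survival protein BCL-XL, rose by 0.53 with air and 0.57 with H2S (adjusted p = 0.00522 and 0.00147). Lcn2, the iron-binding acute phase protein lipocalin 2, rose by 0.38 and 0.57 (adjusted p = 0.0411 and 0.00205). Mcl1, a survival gene of the BCL2 family, rose by 0.27 and 0.35 (adjusted p = 0.0333 and 0.00427). Lrg1, an acute phase glycoprotein, rose with H2S by 1.18 (SE 0.22, adjusted p = 0.00337) and was at 0.82 with air (adjusted p = 0.0503). Myc, a transcription factor of cell growth, rose with H2S by 1.34 (SE 0.17, adjusted p = 0.000262) and was at 0.53 with air (adjusted p = 0.107). Its intensity was 533 to 966 in H2S-ventilated and 351 to 530.4 in air-ventilated mice, while 0.691% of all rows had no overlap upward. This difference of 0.81 did not pass by limma (adjusted p = 0.120) and passed by CyberT (adjusted p = 0.000347). With air against control, CyberT also passed Lrg1 (adjusted p = 0.000336) and Myc (0.00354), and did not pass Mcl1 (0.0547). Vegfa, the gene of the vascular growth factor, was the member that fell with air, by 0.29 on the log2 scale (adjusted p = 0.0399), and was at -0.18 with H2S (adjusted p = 0.174). It lies outside the naming rule and was chosen after its values were seen. These genes answer to several other transcription factors as well, so the list does not isolate STAT3. The list was also chosen with earlier results of these data known, so its counts cannot serve as a test of enrichment.

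Adam17, the protease that sheds the interleukin 6 receptor from the cell surface, fell in both comparisons, by 0.36 on the log2 scale with air (adjusted p = 0.0274 by limma) and by 0.38 with H2S (adjusted p = 0.0118). Its intensity was 1099.8 to 1459 in control, 932 to 1078 in air-ventilated and 874 to 1086 in H2S-ventilated mice, so all ventilated mice lay below all controls while Il6ra lay above them. Of all rows, 2.9% with air and 4.09% with H2S had no overlap downward. The other sheddase listed was not called. Of 5 measured regulators of Il6 transcription or of its transcript, 0 were called with air (1 at an unadjusted p under 0.05, 0 by CyberT). With H2S 3 rose by limma, beside 3.92% of all rows, and 2 were called by CyberT, which did not pass Zc3h12a (adjusted p = 0.0861). Arid5a, which stabilises the Il6 transcript, rose by 0.67 (SE 0.13, adjusted p = 0.00398 by limma). Zfp36 and Zc3h12a, which promote decay of cytokine transcripts, rose by 0.41 (adjusted p = 0.0120) and 0.29 (adjusted p = 0.0429). In H2S against air ventilation, Zfp36 and Zc3h12a had no overlap, at 0.32 and 0.27 (adjusted p = 0.398 and 0.436 by limma), where 0.691% of all rows had no overlap upward.

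**Figure D4:**
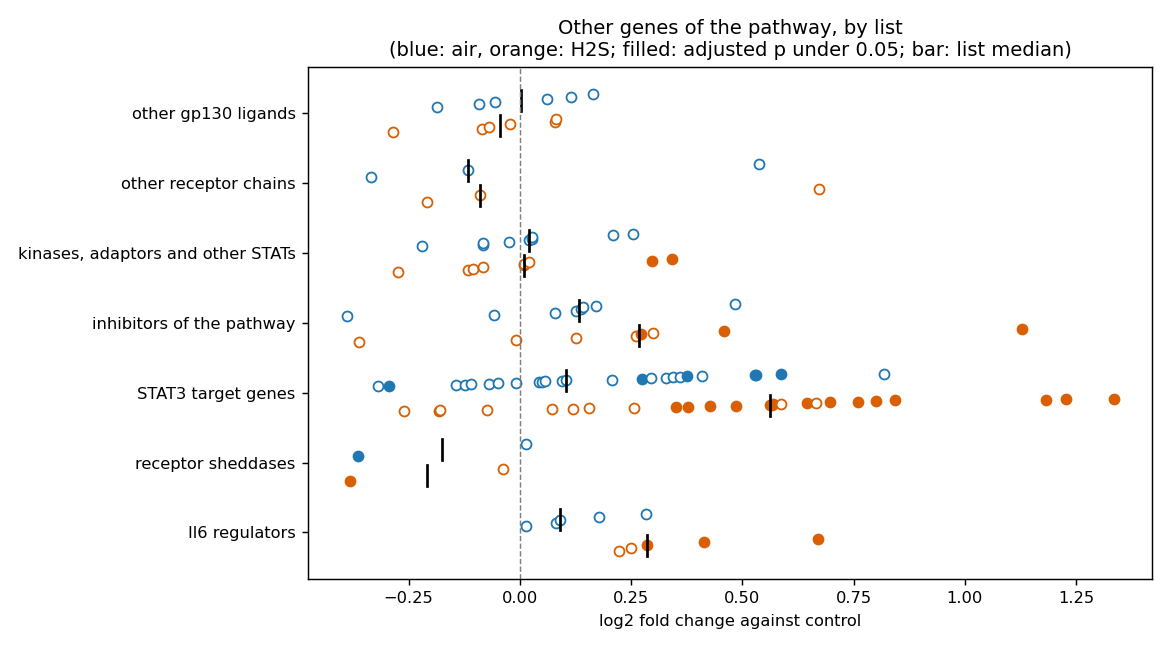
Log2 fold change against control, on the horizontal axis, of each measured gene of the pathway lists on the vertical axis, in blue for air and orange for H2S, with filled points for an adjusted p under 0.05 by limma and a bar at the list median. The STAT3 target list has 15 filled points to the right for H2S with a median of 0.56, and the other ligands have none, with medians of 0.00 and -0.05. The lists were chosen with earlier results of these data known.

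Genes with the pattern most like that of each called gene were taken by Pearson correlation of log2 intensity over the 15 arrays, among 19933 other genes. Because the arrays fall into 3 groups, r is given as a description beside r within groups. Nearest to Lif were Atf3, Artn and Fam110c, with r from 0.88 to 0.89 and within groups from 0.52 to 0.56. Nearest to Il6ra were Ms4a8a, Map3k6 and Galnt15, with r from 0.95 to 0.96 and within groups from 0.78 to 0.86. Nearest to Osmr were Ackr2, Fam117b and Lpl, with r from 0.93 to 0.95 and within groups from 0.90 to 0.92. Nearest to Stat3 were Sbno2, Il4ra and Gpr146, with r from 0.94 to 0.95 and within groups from 0.89 to 0.93. Among the 9 genes themselves the closest pair was Osmr and Stat3, at 0.91 and 0.86 within groups. Lif and Il6ra correlated at 0.37 and 0.25 within groups.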

How the data were processed

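The authors subtracted a background measured on anti-genomic probes, normalized the arrays by quantiles and summarized probes by RMA, which the submitters' processing notes also name. The deposited intensities were linear, although the selection rule had described them as log2, and were transformed to log2 here. Of the columns of samples, 0 were left unused. Symbols came from the platform annotation: 21780 rows had 1 symbol, 1617 several and 4964 were unnamed here. limma 3.58.1 in R 4.3.3 was fitted to all 15 arrays and 28361 rows with no covariate. A call is an adjusted p under 0.05. Intervals are at 95%, and the number of arrays limits their precision. Plots were drawn with matplotlib 3.10.9 in Python 3.11.15.

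The 9 genes, the lists and the tests were chosen with earlier results of these data known, and the supplementary tables of the study, which hold some list genes, had been read. The 9 genes, up to 6 called genes of each pathway list by smallest p, and the 3 genes most like each called gene were to be named. List genes without a row of their own are not analysed here. On simulated data for H2S minus control, limma recovered 93% of 100 rows changed by a fold of 2 and 99% of 100 changed by a fold of 3. There were 7 false calls among the rows left unchanged. Noise was drawn independently for each row. Folds under 2, which include those of all 9 genes, were not simulated, so recovery of differences of their size is not known. Mice with label numbers in the same run of 4 correlated at 0.179 on average (-0.179 to 0.358 over 13 pairs), and others at -0.037. Not every pair was over 0.1, which does not decide whether the numbers pair the mice. The main fit used no pairing, and fits with the label numbers as a block are given among the other settings. Histology, lavage and protein data are not analysed here.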

Additional observations from a re-analysis of the deposited data

How the results depend on the processing

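Of 804 values of the 9 genes under other settings, 746 kept their direction and side of the threshold, 24 lost and 6 gained a call, and 28 changed sign. Of these sign changes, 0 were in called values, and the cause of the changes was not tested. Only values called in the main fit could lose a call. These were Il6ra after air ventilation, and Lif, Il6ra, Osmr and Stat3 after H2S ventilation, each against control. Most of the 746 were therefore values that stayed uncalled, and the total does not measure how stable the calls are. Folds taken from medians kept the p-values of the main fit, so they could change direction but not a call. CyberT called 2 of the 9 genes with air and 1 between H2S and air, beside 5.7% and 0.504% of all rows. It called 8 and 5 STAT3 targets in these comparisons. Between H2S and air 1 gene, Il6, met the thresholds of the study by CyberT, where the share of all rows was not counted. With array weights 1 gene (Lif, 0.62, adjusted p = 0.0133) and 1 STAT3 target passed between H2S and air, and with air-ventilated mouse 11_6 and H2S-ventilated mouse 9_12 both left out, a setting chosen after seeing the data, 1 gene (Lif, 0.71, adjusted p = 0.0157) and 1 target passed there and 2 targets with air. In a fit of only the 2 groups compared, 3 STAT3 targets passed with air. With the replicate block of label runs, or with the number sets as a block, 1 STAT3 target passed between H2S and air. The block of runs also ended the call of Stat3 with H2S (0.34, adjusted p = 0.0507) and gave one to Osm (0.41, adjusted p = 0.0207). It changed no other call of the 9 genes. In that fit H2S-ventilated mouse 15_20 was alone in its run and had no weight in the differences. The effect of the block and the loss of this mouse therefore cannot be told apart. Stat3 with H2S also missed the threshold in the fit of 2 groups (adjusted p = 0.0505) and after another quantile normalization (0.26, adjusted p = 0.0746), and its adjusted p ran from 0.0132 to 0.661 over all settings other than leaving out 1 mouse.

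The mice numbered 1 to 12, 3 per group, called 2 of the 9 genes with H2S, beside 1032 of all 28361 rows. With air, 2 STAT3 targets were called in these mice, beside 561 of all rows. Those numbered 20 to 28, 2 per group, called 0 genes with air, 0 with H2S, and 0 STAT3 targets in either, but also only 0 and 2 of all 28361 rows, so these zeros say little about the genes. Leaving out each mouse gave 1 to 1 genes with air, 2 to 4 with H2S and 0 to 1 between them, and 2 to 6, 14 to 16 and 0 to 1 STAT3 targets.

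Sign changes were small. Il11 with air was -0.032 with array weights, -0.012 after another quantile normalization, -0.0068 from medians, -0.0027 in the numbers 1 to 12 and -0.014 without both mice. Il11 with H2S was -0.038 with array weights, and between H2S and air -0.0058 with array weights and -0.0080 in the numbers 20 to 28. Lif with air was -0.013 with array weights, -0.010 after another quantile normalization and -0.0052 in the numbers 1 to 12. Il6st with H2S was -0.019 after another quantile normalization, -0.0017 from medians and -0.0073 in the numbers 20 to 28. Lifr with H2S was -0.059 with the replicate block and -0.076 in the numbers 1 to 12, and Il6ra between H2S and air was 0.0042 there. Leaving out each mouse gave -0.030 to 0.053 for Il11, -0.27 to 0.052 for Osm and -0.044 to 0.053 for Lif with air, -0.035 to 0.14 for Lifr with H2S, and -0.0049 to 0.084 for Il11 between H2S and air.

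Leaving out the lowest 25% of rows by mean log2 intensity removed Il6 and Il11. A variance trend, a pseudocount of 32, centring on the median and 1 row per gene, the last chosen after seeing the data, changed no call of the 9 genes. The mean of the rows of a gene gave no other value, since each of the 9 has 1 row.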
